A study of Mus musculus with 12 samples.

Results

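The genes described here encode 10 surface molecules through which macrophages and other antigen-presenting cells engage lymphocytes: Cd40, Cd80, Cd86, Cd83, Cd274, Icosl, Icam1, Vcam1, Tnfsf9 and Cd69. They were picked by symbol, matched to the Ensembl identifiers of the deposited count table, and are 10 of its 54232 genes. All 10 were found, and 9 passed the filter on low counts and were tested, whereas Vcam1 did not. The cells were RAW 264.7, a mouse macrophage line that responds to bacterial products in culture, and RNA was measured by sequencing of poly(A) RNA in 12 libraries. The 6 groups had 2 libraries each: Ing4-/- cells given lipopolysaccharide (LPS, a component of the outer membrane of Gram-negative bacteria) at 100 ng/ml for 3 h, untreated Ing4-/- cells, Socs1-/- cells given the same LPS, untreated Socs1-/- cells, wild-type (WT) cells given the same LPS, and untreated WT cells. All were grown in the same serum-containing medium. The series title calls both targets E3 ligases, enzymes that help to attach ubiquitin to other proteins. How each gene was disrupted, and how many clones each line holds, is not stated in the labels, so the loss of the gene and other differences between the lines cannot be told apart.

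T cells need a signal through the antigen receptor and a second, costimulatory signal from the presenting cell. CD80 and CD86 give it through CD28 and are also bound by the inhibitory receptor CTLA-4, ICOS ligand (Icosl) binds ICOS, 4-1BB ligand (Tnfsf9) binds 4-1BB, and PD-L1 (Cd274) restrains T cells through PD-1. CD40 works in the other direction: it receives CD40 ligand from T cells and activates the presenting cell. ICAM-1 and VCAM-1 are adhesion molecules bound by integrins. In macrophages LPS is sensed by Toll-like receptor 4, which acts through NF-kB and interferon regulatory factors, and many costimulatory genes are known targets of these factors.

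Promoter sequences of 4 members (Cd80, Cd274, Icosl and Icam1) were matched in RefSeq for GRCm38.p6. Those of Icam1 and Icosl are shown because the LPS change of Icam1 had the smallest standard errors of the members, and Icosl had the lowest adjusted p of the members when Ing4-/- cells were set against WT cells. Each is the 250 bases before the RefSeq start site on the plus strand, at chr9:21015690-21015939 for Icam1 and at chr10:78069118-78069367 for Icosl. Capitals mark matches to the motifs named after them.
Icam1: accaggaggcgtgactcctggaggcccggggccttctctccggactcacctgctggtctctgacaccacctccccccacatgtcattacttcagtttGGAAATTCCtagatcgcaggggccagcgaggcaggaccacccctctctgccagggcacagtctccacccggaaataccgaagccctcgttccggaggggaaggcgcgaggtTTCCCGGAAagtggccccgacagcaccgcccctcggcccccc
Icosl: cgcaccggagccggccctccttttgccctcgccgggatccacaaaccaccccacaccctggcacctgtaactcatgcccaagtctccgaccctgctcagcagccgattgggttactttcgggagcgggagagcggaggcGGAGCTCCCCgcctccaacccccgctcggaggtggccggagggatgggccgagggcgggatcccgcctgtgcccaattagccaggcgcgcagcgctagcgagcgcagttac
In Icam1 the capitals are GGAAATTCC, 153 bases before the start, and a match to TTCNNNGAA, 42 bases before it. The letters GGAAATTCC were searched because they are the NF-kB site known in the human ICAM1 promoter, and TTCNNNGAA is the core bound by STAT factors. In Icosl they match the NF-kB consensus on the minus strand, 111 bases before the start. Windows of 300 bases (250 before and 50 after the start) of 32817 RefSeq promoters were searched on both strands. GGAAATTCC was in 0.317% of all windows and in 1 of the 4 members' windows, TTCNNNGAA in 8.29% and 1, and the NF-kB consensus in 8.46% and 1. The letters GAAA repeated after a gap of 2 bases, as in interferon-response elements, were in 3.43% of windows and TGACTCA, the AP-1 motif, in 5.2%, and neither was in the 4 windows, while TATAAA was in 13.6% of windows and in 2 of the 4. A match is a description of the letters and not evidence of binding.

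The libraries held 17250815 to 24377950 counts each, and 3 counts, the floor used for bounds, correspond to 0.122 to 0.169 CPM (read counts relative to the summed counts of the tested genes of a library, with TMM scaling). Whether the pair of libraries in a group came from separate cultures is not stated, so each p-value reflects the spread between those libraries, which may be technical. On the first principal component, with 54.4% of the variance, 5 LPS-treated libraries lay between 62.4 and 74.4 and replicate 1 of the LPS-treated Socs1-/- cells at -16.2, while the untreated libraries lay between -66.1 and -41.7. Values without that replicate are given beside the results of the Socs1-/- cells. Counts of the targeted genes did not check the genotype labels: Ing4 had 6 to 29 counts per library in Ing4-/- cells against 2 to 10 in WT cells, and after LPS Socs1 had 2.73 to 7.14 CPM in Socs1-/- cells against 9.08 CPM in both WT libraries. A disrupted gene may still be transcribed, so these values do not speak against the labels. All 10 macrophage markers passed the filter, with a summed level of 12300 to 22900 CPM. The 10 markers of T, B and NK cells summed to at most 0.348 CPM and the 10 of fibroblasts, endothelial and epithelial cells to at most 1.07 CPM. Of 8 dendritic cell markers 3 passed (Zbtb46, Itgax and Xcr1), and Flt3 and Cd209a had 0 counts in every library.

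LPS raised many of these transcripts in each genotype. All 9 tested members were higher after LPS in the fit of every genotype, and 7 rose in Ing4-/- cells, 4 in Socs1-/- cells and 5 in WT cells (edgeR quasi-likelihood test, adjusted p under 0.05 over all 12771 tested genes). Of all tested genes, 4.73% rose in Ing4-/- cells, 1.57% in Socs1-/- cells and 1.89% in WT cells. The members were chosen with earlier results of these data known, so this contrast is a description and no independent test. Cd40, Cd83, Icam1 and Tnfsf9 rose in all 3 genotypes. The median log2 change of the members was 4.19 in Ing4-/- cells (3.64 with Cd86 and Cd69, which had 0 counts before LPS, set to their bounds), 2.89 in Socs1-/- cells and 3.23 in WT cells, against a median of all tested genes within 0.01 of 0. In bulk RNA a change in the share of cells that make a transcript and a change in the RNA per cell cannot be told apart.

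**Figure D1:**
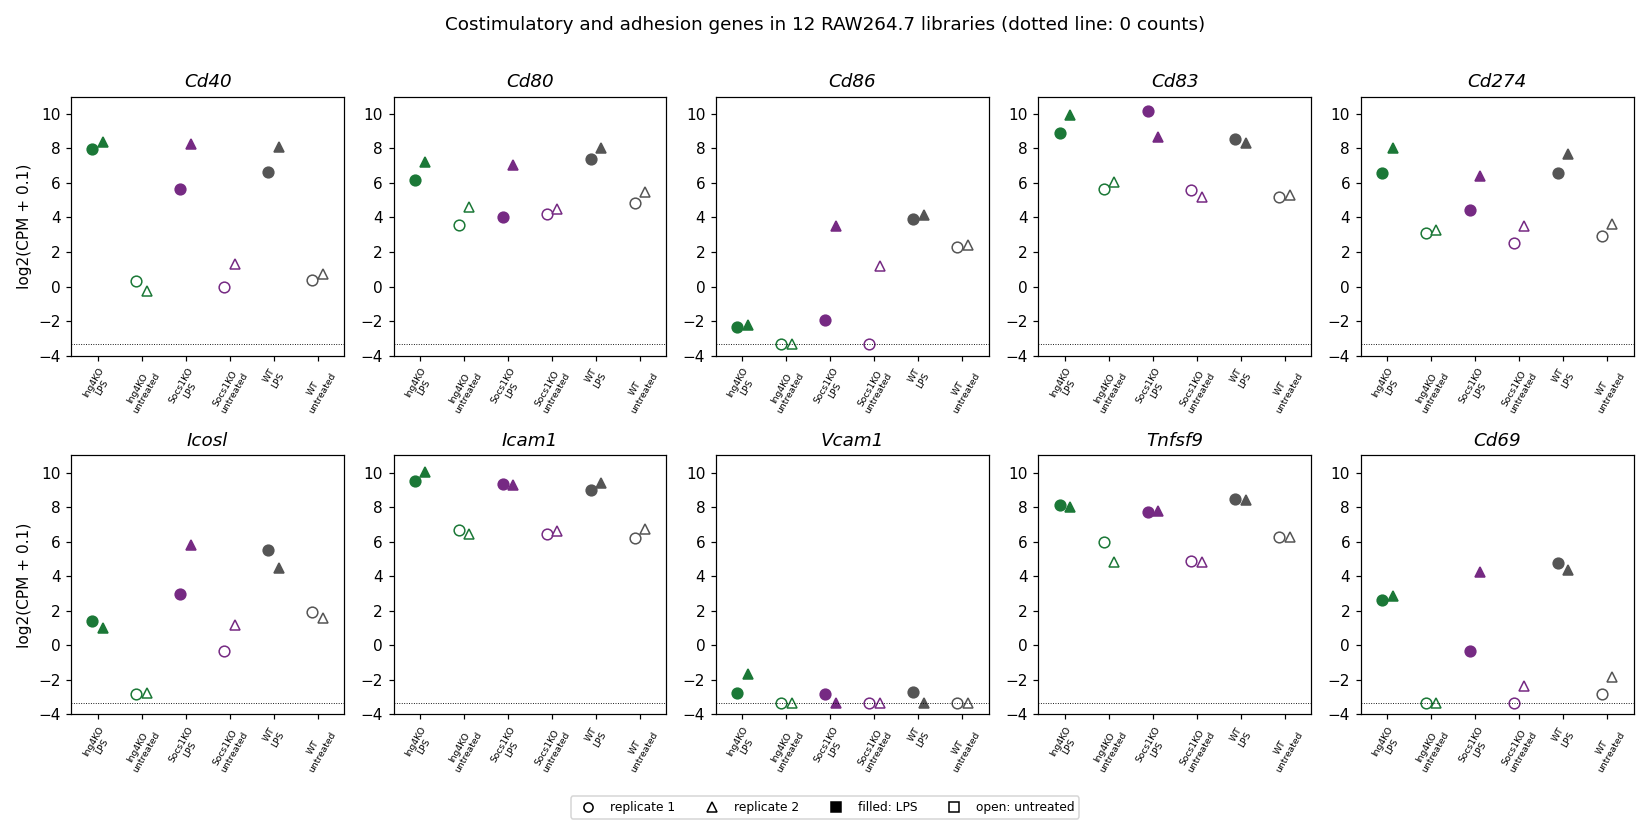
Level of each of the 10 genes in every library, as log2(CPM + 0.1), with circles for replicate 1, triangles for replicate 2, filled symbols for LPS and open symbols for untreated cells; KO stands for the -/- lines and the dotted line marks 0 counts. In Ing4-/- and WT cells the LPS-treated libraries lie above the untreated ones for all 9 tested members, whereas in Socs1-/- cells replicate 1 after LPS is level with untreated cells for Cd80 and Cd86.

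Cd40 (ENSMUSG00000017652, GRCm38 chromosome 2, 165055627 to 165072948, plus strand), the receptor for CD40 ligand, was close to silent before LPS. It had 245 and 332 CPM in LPS-treated Ing4-/- cells, against 1.13 and 0.737 CPM in untreated Ing4-/- cells. In Socs1-/- cells it had 50.1 and 308 CPM after LPS, against 0.867 and 2.34 CPM untreated, and in WT cells 98.9 and 272 CPM after LPS, against 1.19 and 1.54 CPM untreated. Every LPS-treated library was above every untreated one, and replicate 1 of the LPS-treated Socs1-/- cells was the lowest of the treated ones. The log2 rise of Cd40 was 8.26 in Ing4-/- cells (SE 1.10, edgeR adjusted p = 0.00651), 6.81 in Socs1-/- cells (SE 1.03, adjusted p = 0.0138) and 7.08 in WT cells (SE 1.04, adjusted p = 0.014). Without that replicate it was 7.61 in Socs1-/- cells (SE 0.697, adjusted p = 0.000544).

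Tnfsf9 (ENSMUSG00000035678, chromosome 17, 57105325 to 57107757, plus strand), the 4-1BB ligand, was already well expressed and rose less. Its levels were 278 and 262 CPM in LPS-treated Ing4-/- cells, against 63.6 and 28.4 CPM in untreated ones. Socs1-/- cells had 212 and 217 CPM after LPS, against 29.8 and 27.9 CPM untreated, and WT cells 362 and 341 CPM after LPS, against 77.4 and 76.1 CPM untreated. The treated and untreated libraries did not overlap, and both untreated Socs1-/- libraries were below both untreated WT ones. The log2 change was 2.55 in Ing4-/- cells (SE 0.312, edgeR adjusted p = 0.00351), 2.89 in Socs1-/- cells (SE 0.316, adjusted p = 0.00295) and 2.19 in WT cells (SE 0.307, adjusted p = 0.00967), and it was 2.91 in Socs1-/- cells without replicate 1 after LPS (adjusted p = 0.00128). Gm11110, on the opposite strand, overlaps 25.4% of the span of Tnfsf9, and the labels do not state the strand setting of the authors' counting, so reads of the pair may be mixed.

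Cd80 and Cd86 encode the ligands of CD28 and CTLA-4. Cd80 (ENSMUSG00000075122, chromosome 16, 38455561 to 38496335, plus strand) had 71.8 and 147 CPM in LPS-treated Ing4-/- cells, against 11.6 and 24.4 CPM in untreated ones. It had 16.3 and 130 CPM in LPS-treated Socs1-/- cells, against 18.1 and 22 CPM untreated, and 169 and 265 CPM in LPS-treated WT cells, against 28.9 and 44.1 CPM untreated. The groups were apart in Ing4-/- and WT cells, but in Socs1-/- cells replicate 1 after LPS was below both untreated libraries. None of its log2 changes passed the test: 2.60 in Ing4-/- cells (SE 0.851, edgeR adjusted p = 0.0916), 1.87 in Socs1-/- cells (SE 0.830, adjusted p = 0.302) and 2.57 in WT cells (SE 0.846, adjusted p = 0.131). Without that library Cd80 rose in Ing4-/- cells by 2.60 (adjusted p = 0.00721), in Socs1-/- cells by 2.70 (adjusted p = 0.0124) and in WT cells by 2.58 (adjusted p = 0.00937).

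Cd86 (ENSMUSG00000022901, chromosome 16, 36603869 to 36666081, minus strand) was nearly absent from Ing4-/- cells. It had 2 counts in each LPS-treated Ing4-/- library, against 0 in each untreated one. LPS-treated Socs1-/- cells had 4 counts (0.163 CPM) in replicate 1 and 202 counts (11.4 CPM) in replicate 2, against 0 and 43 counts in untreated ones. WT cells had 14.7 and 17.6 CPM after LPS, against 4.79 and 5.12 CPM untreated. The split of the Socs1-/- cells was by replicate number under both treatments, with replicate 1 at 0 to 4 counts and replicate 2 below the WT libraries of the same treatment. The log2 change after LPS was 1.71 in WT cells (SE 1.59, edgeR adjusted p = 0.576) and 2.43 in Socs1-/- cells (SE 1.71, adjusted p = 0.539). In Ing4-/- cells, with 4 counts after LPS against 0 before, the change did not pass (edgeR adjusted p = 0.638). Setting the 0 to 3 counts gave 1.52-fold, which ignores the counting error of the 4, so a rise there was not shown. Without replicate 1 after LPS the change in Socs1-/- cells was 3.44 (SE 1.25, adjusted p = 0.118), which did not pass. Same-numbered libraries of a genotype deviated together, and with genotype and replicate number as a block Cd86 rose in Socs1-/- cells (log2 2.48, SE 0.381, adjusted p = 0.0303) and in WT cells (log2 1.70, SE 0.261, adjusted p = 0.0232).

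Cd274 (ENSMUSG00000016496, chromosome 19, 29367455 to 29388095, plus strand), which encodes the inhibitory ligand PD-L1, had 96.8 and 263 CPM in LPS-treated Ing4-/- cells, against 8.59 and 9.4 CPM in untreated ones. Socs1-/- cells had 21.2 and 84.6 CPM after LPS, against 5.64 and 11.4 CPM untreated, and WT cells 94 and 208 CPM after LPS, against 7.51 and 12.4 CPM untreated. The treated libraries were above the untreated ones in each genotype, and both LPS-treated Socs1-/- libraries were below all 4 other treated ones. Cd274 rose by 4.32 in Ing4-/- cells (SE 0.820, edgeR adjusted p = 0.0232) and by 3.92 in WT cells (SE 0.805, adjusted p = 0.0431), and in Socs1-/- cells its log2 change of 2.63 (SE 0.768, adjusted p = 0.145) did not pass. In Socs1-/- cells it rose with the block (log2 2.42, adjusted p = 0.0312) and without replicate 1 (log2 3.32, adjusted p = 0.0163). AC119228.1 lies antisense to 53.6% of its span, so its reads carry the same doubt about strand.

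Icosl (ENSMUSG00000000732, chromosome 10, 78069302 to 78083913, plus strand), the ICOS ligand, had 2.57 and 1.94 CPM in LPS-treated Ing4-/- cells, against 1 count in each untreated Ing4-/- library. It had 7.87 and 55.8 CPM in LPS-treated Socs1-/- cells, against 0.694 and 2.19 CPM untreated, and 46.3 and 22.6 CPM in LPS-treated WT cells, against 3.78 and 2.94 CPM untreated. LPS-treated Ing4-/- cells thus had less Icosl than untreated WT cells in each library. The log2 rise of Icosl in Ing4-/- cells was 5.48 (SE 1.39, edgeR adjusted p = 0.0494, and 0.0504 with RLE scaling), where the raw ratio was 50.8 with an exact binomial 95% interval of 13.7 to 426 for counting error only. Its change was 4.47 in Socs1-/- cells (SE 0.938, adjusted p = 0.0556) and 3.36 in WT cells (SE 0.875, adjusted p = 0.0807). It rose in both with the block (adjusted p = 0.00261 in Socs1-/- cells and 0.00382 in WT cells) and without replicate 1 of the LPS-treated Socs1-/- cells (adjusted p = 0.000864 in Socs1-/- cells and 0.0029 in WT cells).

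Cd83 and Cd69 are markers of activation, of mature dendritic cells for Cd83, which helps to keep MHC class II and CD86 at the surface, and of early lymphocyte activation for Cd69, a lectin that limits cell exit from tissue. Cd83 (ENSMUSG00000015396, chromosome 13, 43784775 to 43803132, plus strand) had 472 and 981 CPM in LPS-treated Ing4-/- cells, against 50.9 and 65.4 CPM untreated. It had 1150 and 400 CPM in LPS-treated Socs1-/- cells, against 47.3 and 35.6 CPM untreated, and 378 and 322 CPM in LPS-treated WT cells, against 36 and 38.6 CPM untreated. All treated libraries were above all untreated ones, and the highest value of the 12 was that of replicate 1 of the LPS-treated Socs1-/- cells. Cd83 rose by 3.64 in Ing4-/- cells (SE 0.525, edgeR adjusted p = 0.00802), 4.23 in Socs1-/- cells (SE 0.540, adjusted p = 0.00614) and 3.23 in WT cells (SE 0.516, adjusted p = 0.0183). Without that replicate the rise of Cd83 in Socs1-/- cells was 3.27 (SE 0.375, adjusted p = 0.000919), beside 3.23 in WT cells.

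Cd69 (ENSMUSG00000030156, chromosome 6, 129267325 to 129275436, minus strand) had 6.04 and 7.31 CPM in LPS-treated Ing4-/- cells, against 0 counts in both untreated ones. It had 0.693 and 19.1 CPM in LPS-treated Socs1-/- cells, against 0 and 2 counts untreated, and 27.5 and 20.5 CPM in LPS-treated WT cells, against 1 and 4 counts untreated. The treated libraries were above the untreated ones in each genotype, and replicate 1 of the Socs1-/- cells was the lowest of them. It rose in Ing4-/- cells (edgeR adjusted p = 0.0471), where its level was at least 98.5-fold higher after LPS. In Socs1-/- cells the raw ratio was 181 (exact binomial 95% interval 49.9 to 1500, adjusted p = 0.0974), and in WT cells the log2 change was 7.67 (SE 1.66, adjusted p = 0.0582). Cd69 rose in all 3 genotypes with the block (adjusted p of 0.00285 in Ing4-/-, 0.00554 in Socs1-/- and 0.00211 in WT cells). Without replicate 1 after LPS its log2 rise in Socs1-/- cells was 8.50 (SE 0.699, adjusted p = 0.000287).

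Of the adhesion molecules Icam1 was abundant and Vcam1 was not detected above the floor in most libraries. Icam1 (ENSMUSG00000037405, chromosome 9, 21015985 to 21028817, plus strand), the ligand of the integrins LFA-1 and Mac-1, had 743 and 1040 CPM in LPS-treated Ing4-/- cells, against 104 and 87 CPM untreated. It had 648 and 632 CPM in LPS-treated Socs1-/- cells, against 87.5 and 98.8 CPM untreated, and 505 and 678 CPM in LPS-treated WT cells, against 73.2 and 106 CPM untreated. All treated libraries were far above all untreated ones, and the LPS-treated Socs1-/- libraries did not stand apart from each other here. Icam1 rose by 3.23 in Ing4-/- cells (SE 0.269, edgeR adjusted p = 0.000448), 2.78 in Socs1-/- cells (SE 0.264, adjusted p = 0.00148) and 2.72 in WT cells (SE 0.263, adjusted p = 0.00132), and by 2.77 in Socs1-/- cells without replicate 1 after LPS (adjusted p = 0.000593). The antisense gene Gm47079 overlaps 3.98% of its span. Vcam1 (ENSMUSG00000027962, chromosome 3, 116109949 to 116129688, minus strand), bound by the integrin VLA-4, had 1 and 4 counts in LPS-treated Ing4-/- cells, 1 and 0 counts in LPS-treated Socs1-/- cells and 1 and 0 counts in LPS-treated WT cells. It had 0 counts in all 6 untreated libraries.

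How many members passed depended on which libraries entered the fit, in which the 6 groups share 1 estimate of the spread. Why the number moved was not tested. Without replicate 1 of the LPS-treated Socs1-/- cells 8 of the 9 members rose in each genotype, all but Cd86, while 11.2% of all 13262 tested genes rose in Ing4-/- cells, 9.03% in Socs1-/- cells and 7.79% in WT cells. The Socs1-/- LPS group then holds 1 library, whose spread is taken to be that of the remaining groups. Leaving out replicate 2 of that group in its place gave 8 rises in Ing4-/- cells, 4 in Socs1-/- cells and 8 in WT cells, while 11.1% of all genes rose in Ing4-/- cells, 1.53% in Socs1-/- cells and 7.75% in WT cells. Leaving out any 1 of the other 10 libraries lowered the number of members called in Ing4-/- and WT cells and did not raise it in Socs1-/- cells. The number of all genes called in Ing4-/- and WT cells also fell in each of these fits, so the drop was not particular to the members. The calls of Icosl and Cd69 in Ing4-/- cells and of Cd274 in WT cells were lost without any 1 of those 10, whereas Icam1 was called in all 3 genotypes, and Tnfsf9 in both knockout lines, whichever 1 of the 12 libraries was left out. In a fit to the Socs1-/- groups alone, however, edgeR called 0 members and 0 genes after LPS (adjusted p = 0.137 for both Icam1 and Tnfsf9). Cd40 and Cd83 lost their call in each genotype without either one of its untreated libraries, and Tnfsf9 lost it in WT cells without any 1 WT library. With genotype and replicate number as a block 8 members rose in Ing4-/- cells (all but Cd86), 8 in Socs1-/- cells (all but Cd80) and 9 in WT cells, beside 15.2%, 4.39% and 8.28% of all genes in Ing4-/-, Socs1-/- and WT cells. By library values alone, both LPS-treated libraries were above both untreated ones for 9 of 9 members in Ing4-/- cells (29.1% of all tested genes), 7 of 9 in Socs1-/- cells (22.5%) and 9 of 9 in WT cells (30.7%).

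**Figure D2:**
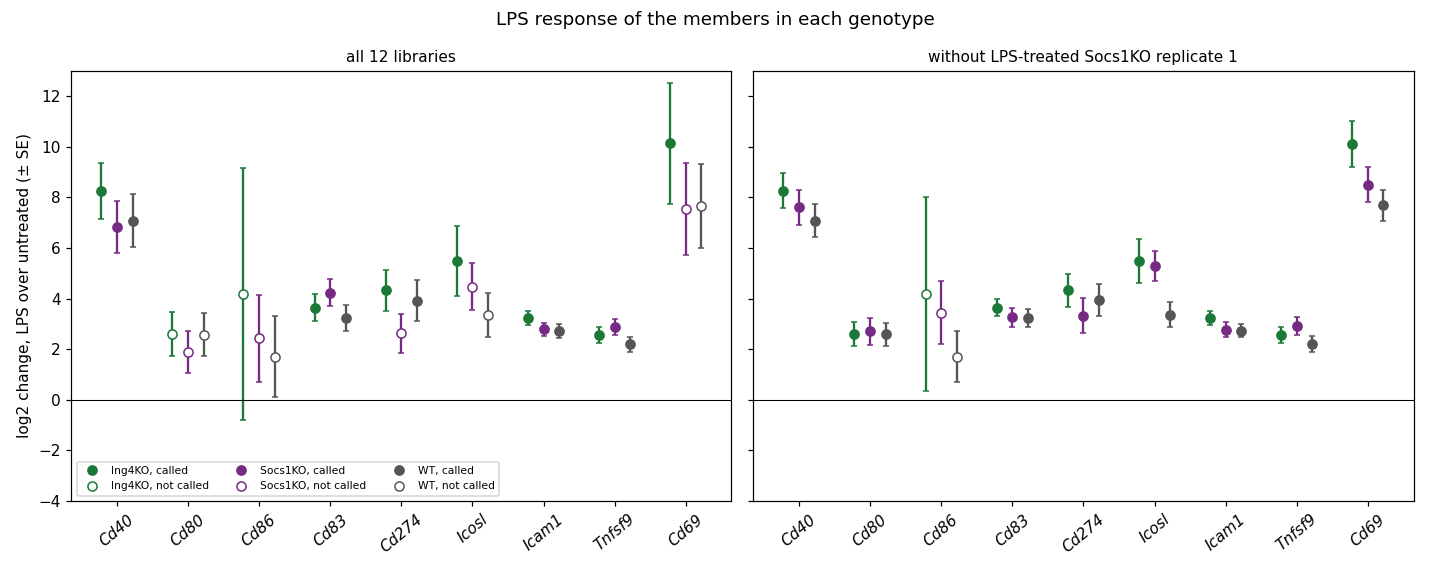
Log2 change after LPS (± SE) of the 9 tested members in Ing4-/- (KO), Socs1-/- (KO) and WT cells, with filled points for members called at an adjusted p under 0.05, fitted to all 12 libraries (left) and without replicate 1 of the LPS-treated Socs1-/- cells (right). All points lie above 0, with 7, 4 and 5 called on the left and 8 in each genotype on the right.

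Per length of the merged exons, the level of Tnfsf9 was the highest of the members in WT cells under both treatments. In LPS-treated WT cells it had 264 to 281 CPM per kb, above Cd83 (125 to 147) and Icam1 (116 to 155), which overlapped. Cd80 (45.7 to 71.6), Cd40 (29 to 79.7) and Cd274 (26 to 57.5) followed and also overlapped, and then Icosl (4.9 to 10), Cd86 (4.01 to 4.82) and Cd69 (3.16 to 4.23), of which Cd86 and Cd69 overlapped. In untreated WT cells Tnfsf9 averaged 59.5 CPM per kb, Icam1 20.5, Cd83 14.5, Cd80 9.85, Cd274 2.75, Cd86 1.35, Icosl 0.727, Cd40 0.4 and Cd69 0.0173, and no neighbours in this order overlapped. Cd40 thus stood after Cd86 and Icosl in untreated WT cells and before both after LPS. In LPS-treated knockout cells Cd83 had the highest mean, 282 CPM per kb in Ing4-/- cells (183 to 382) and 302 in Socs1-/- cells (155 to 448). In each knockout line the range of Cd83 overlapped that of Tnfsf9, which was 203 to 216 CPM per kb in Ing4-/- cells and 164 to 168 in Socs1-/- cells.

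Set against WT cells, Ing4-/- cells had far less Icosl and Cd86 under both treatments, but 0 of the 9 members passed in edgeR with all 12 libraries. Over all tested genes edgeR called 0.141% in untreated and 0.102% in LPS-treated cells. At an unadjusted p under 0.05, 3 members passed in untreated and 3 in LPS-treated cells, beside 5.25% and 7.09% of all 12771 genes. DESeq2 called 2 members untreated (Icosl and Cd86) and 1 after LPS (Icosl), beside 0.987% and 1.1% of all genes. Untreated Ing4-/- cells had 2 Icosl counts in all, against 151 in untreated WT cells, so the WT level was 75.1 times higher by raw ratio (exact binomial 95% interval 20.4 to 626, counting error only). The fitted log2 difference was -6.05 (SE 1.36, adjusted p = 0.259), and after LPS it was -3.93 (SE 0.907, adjusted p = 0.281). Without replicate 1 of the LPS-treated Socs1-/- cells, Icosl fell in Ing4-/- cells in both states, untreated (adjusted p = 0.0259, where 0.249% of all genes fell) and after LPS (adjusted p = 0.0228, 0.226% of all genes). Leaving out replicate 2 of that group also gave 1 member call in each state, where 0.256% of all genes fell untreated and 0.218% after LPS.

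Cd86 had 0 counts in untreated Ing4-/- cells, against 222 in untreated WT cells, and was at least 73.6-fold lower (adjusted p = 0.704). After LPS it had 4 counts in Ing4-/- cells, with a log2 difference from WT cells of -7.22 (SE 2.29, adjusted p = 0.534). The SE of Cd86 comes from a spread that is shared with the Socs1-/- libraries, among which Cd86 differed most. In a fit to the groups of the comparison alone, edgeR called 2 members in untreated cells (Icosl and Cd86) and 3 after LPS (Icosl, Cd86 and Cd69), beside 1.48% of 11992 genes untreated and 0.6% of 12000 after LPS. Cd69 was also low in LPS-treated Ing4-/- cells, at 6.04 and 7.31 CPM against 27.5 and 20.5 CPM in LPS-treated WT cells (log2 -1.85, SE 1.15, adjusted p = 0.856 with all 12 libraries). Cd80 was lower in Ing4-/- cells by a log2 of -1.02 untreated (SE 0.815) and -0.99 after LPS (SE 0.804), neither of which passed. In the other direction, the LPS-treated Ing4-/- libraries were both above the WT ones for Cd83 (log2 1.05, SE 0.478, adjusted p = 0.715) and Icam1 (log2 0.59, SE 0.248, adjusted p = 0.683). By library values, 6 members were lower and 1 higher in both untreated Ing4-/- libraries than in both untreated WT ones, beside 20.1% and 18.4% of all genes, and after LPS 5 were lower and 2 higher, beside 18.2% and 19.4%.

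In Socs1-/- cells against WT cells 0 of 9 members passed in edgeR under either treatment, beside 0.047% of all tested genes untreated and 0.0626% after LPS. At an unadjusted p under 0.05, 1 member passed untreated and 2 after LPS, beside 5.15% and 10.6% of all genes. DESeq2 called 1 member untreated (Tnfsf9) and 0 after LPS, beside 0.711% and 1.84% of all genes. The untreated difference of Tnfsf9 was a log2 of -1.41 (SE 0.301, adjusted p = 0.305, and 0.0254 without either one of the untreated Ing4-/- libraries). After LPS it was -0.71 (SE 0.295, adjusted p = 0.444). After LPS the fitted differences were -1.57 for Cd80 (SE 0.816, adjusted p = 0.531), -1.52 for Cd274 (SE 0.727, adjusted p = 0.503) and 1.15 for Cd83 (SE 0.479, adjusted p = 0.445). These depend on which LPS-treated Socs1-/- library is used. Without replicate 1 the differences were -0.74, -0.83 and 0.20, with 0 members and 0 of all genes called (1442 genes at an unadjusted p under 0.05). Without replicate 2 Cd80 was lower by a log2 of -3.74, Cd69 lower by -5.11 and Cd83 higher by 1.72, all called, among 1196 called genes (9% of those tested).

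**Figure D3:**
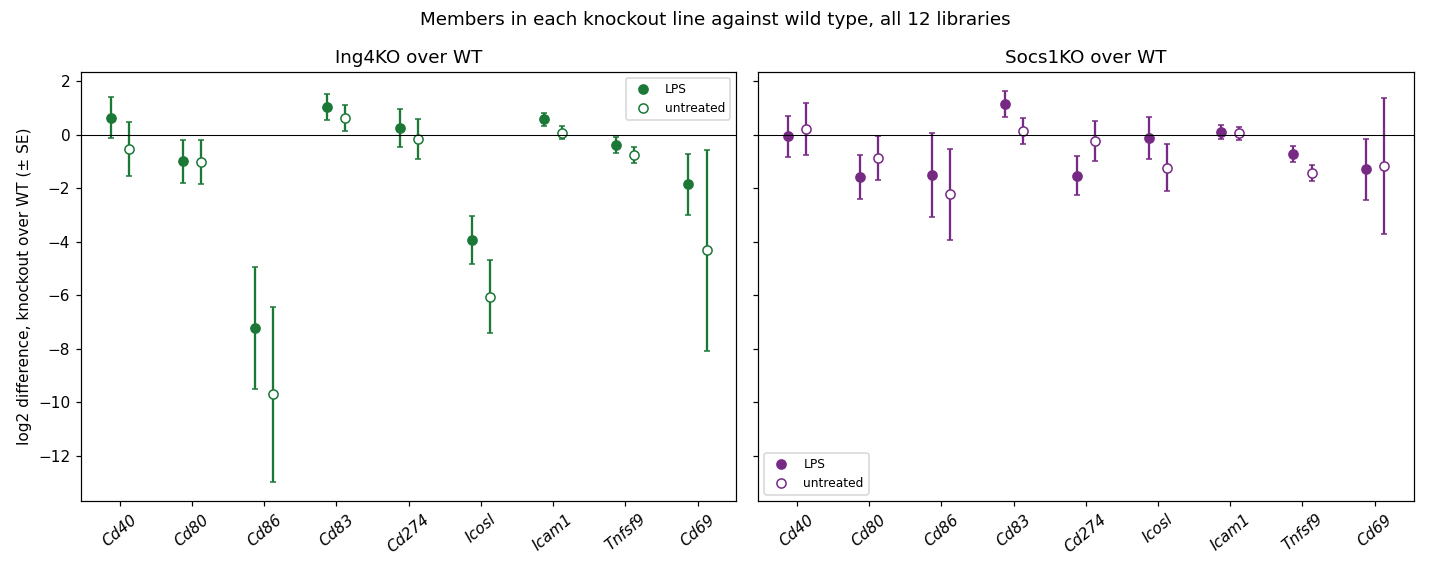
Log2 difference from WT (± SE) of the 9 tested members in Ing4-/- cells (left) and Socs1-/- cells (right), after LPS (filled) and untreated (open), fitted to all 12 libraries. Icosl and Cd86 lie lowest in Ing4-/- cells, at -3.93 and -7.22 after LPS and -6.05 and -9.70 untreated (the untreated value of Cd86 rests on 0 counts and is no measured size), and 0 of the 36 differences shown passed.

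The LPS response itself was not shown to differ between genotypes. In the test of the difference of responses 0 of 9 members and 0 of 12771 genes passed for Ing4-/- minus WT and for Socs1-/- minus WT with edgeR, and 0 with DESeq2. At an unadjusted p under 0.05 this held for 53 genes (0.415%) and 0 members with Ing4-/- cells, and for 102 genes (0.799%) and 0 members with Socs1-/- cells. For Icosl the response was larger by a log2 of 2.12 in Ing4-/- cells than in WT cells (SE 1.77) and by 1.11 in Socs1-/- cells than in WT cells (SE 1.17). For Cd274 it was -1.29 for Socs1-/- minus WT (SE 1.03), and for Cd83 it was 1.00 (SE 0.673). Without replicate 1 of the LPS-treated Socs1-/- cells the values for Socs1-/- minus WT were -0.61 for Cd274 (SE 0.918), 0.04 for Cd83 (SE 0.498) and 1.93 for Icosl (SE 0.731). Leaving out each library in turn, Cd274 ran from -2.61 to -0.61, Cd83 from 0.04 to 1.57 and Icosl from -0.90 to 2.15. Icam1 had the smallest errors, with 0.50 for Ing4-/- minus WT (SE 0.350) and 0.06 for Socs1-/- minus WT (SE 0.350).

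The LPS-treated Socs1-/- libraries split the members. Replicate 1 had less of Cd86 (0.0144 of the level in replicate 2), Cd69 (0.0363), Cd80 (0.125), Icosl (0.141), Cd40 (0.163) and Cd274 (0.25). It had 2.88 times the Cd83 of replicate 2, while Icam1 and Tnfsf9 were near equal, at 1.03 and 0.979 of replicate 2. Cd86 showed the same split before LPS, with 0 counts in replicate 1 and 43 in replicate 2 of the untreated Socs1-/- cells. The summed level of the macrophage markers was 15100 CPM in replicate 1 and 13900 CPM in replicate 2, within the range of the other groups, but single markers differed between the replicates. Csf1r, the receptor for the growth factor M-CSF, had 2110 CPM in replicate 1 and 721 CPM in replicate 2, against 2120 and 1700 CPM in untreated Socs1-/- cells. Itgam, which encodes a chain of the integrin Mac-1, had 17.6 and 52.9 CPM in LPS-treated replicates 1 and 2, against 18.3 and 45.9 CPM untreated. Other macrophage markers did not all change alike after LPS. Cd14 and Spi1 were higher in both replicates, whereas Lyz2 and Fcgr1 were lower in both. Cd14 had 1610 and 2960 CPM in LPS-treated replicates 1 and 2, against 546 and 848 CPM untreated. Spi1 had 9938 and 11719 counts, against 6844 and 5132 untreated. Lyz2 had 9480 and 7660 CPM in LPS-treated replicates 1 and 2, against 9710 and 8690 CPM untreated. Fcgr1 had 793 and 880 counts, against 974 and 1188 untreated. These markers were named after their values were seen. In the other genotypes no tested member differed between LPS-treated replicates by more than Cd40 in WT cells, at -1.46 in log2(CPM + 0.1). The part of these markers in the split, and its cause, was not tested.

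**Figure D4:**
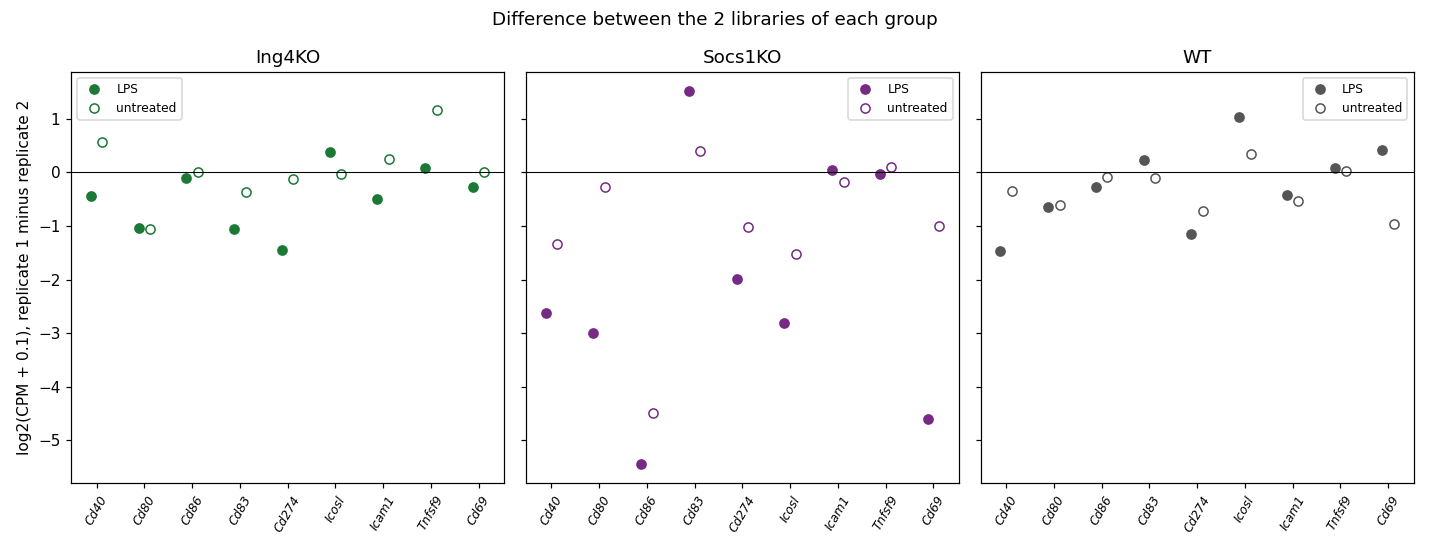
Difference between replicate 1 and replicate 2 of each group in log2(CPM + 0.1) for the 9 tested members in Ing4-/- (KO), Socs1-/- (KO) and WT cells, with filled points for LPS and open points for untreated cells. In Socs1-/- cells after LPS the points run from -5.45 (Cd86) to 1.53 (Cd83), with Icam1 at 0.04 and Tnfsf9 at -0.03.

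Other costimulatory, inhibitory and adhesion genes were taken as a list of 48, of which 37 were tested, and 2 rose and 2 fell in Ing4-/- cells, 1 rose in Socs1-/- cells, and 1 rose and 1 fell in WT cells. Of all tested genes 4.73% rose and 3.29% fell in Ing4-/- cells, 1.57% rose and 0.407% fell in Socs1-/- cells, and 1.89% rose and 1% fell in WT cells. The list's median log2 change was 0.56 in Ing4-/-, 0.39 in Socs1-/- and 0.46 in WT cells. Pvr, the poliovirus receptor bound by CD226 and TIGIT, rose in all 3 genotypes, by 1.95 in Ing4-/- cells (SE 0.247), 1.80 in Socs1-/- cells (SE 0.247) and 1.24 in WT cells (SE 0.243). Sirpa, the macrophage receptor for the don't-eat-me signal CD47, fell by 1.67 in Ing4-/- cells and 1.41 in WT cells. In Ing4-/- cells Cd44, the hyaluronan receptor, rose by 2.31 and Cd276, which encodes B7-H3, fell by 1.10. Without replicate 1 of the LPS-treated Socs1-/- cells, 38 were tested, and 10 rose and 2 fell in Ing4-/- cells, 9 rose in Socs1-/- cells, and 5 rose and 2 fell in WT cells. Of all tested genes 11.2% then rose and 9.25% fell in Ing4-/- cells, 9.03% rose and 6.73% fell in Socs1-/- cells, and 7.79% rose and 6.69% fell in WT cells. In each knockout against WT 0 of the 37 passed, under either treatment, in edgeR with all 12 libraries.

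Lymphocyte partners of these molecules were also looked for, since 0 of the 10 T, B and NK cell markers passed the filter. Of 10 partner genes 4 passed the filter (Cd28, Icos, Pdcd1 and Tnfrsf9), and 4 had 0 counts in every library. Pdcd1, which encodes PD-1, had 161 and 141 counts in LPS-treated Ing4-/- cells, 341 and 353 in LPS-treated Socs1-/- cells and 74 and 48 in LPS-treated WT cells. In untreated cells Pdcd1 had 2 and 2 counts in Ing4-/- cells, 237 and 8 in Socs1-/- cells and 0 and 1 in WT cells, so that replicate 1 of the untreated Socs1-/- cells stood apart. Cd28 had 25 and 25 counts in LPS-treated Ing4-/- cells, 12 and 84 in LPS-treated Socs1-/- cells and 44 and 21 in LPS-treated WT cells. In untreated cells Cd28 had 203 and 123 counts in Ing4-/- cells, 20 and 653 in Socs1-/- cells and 430 and 181 in WT cells, and here replicate 1 of the Socs1-/- cells was the lowest.

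Across the 12 libraries the members did not all vary alike. The log2 CPM of Cd40 and Icam1 had a Pearson correlation of 0.980, and that of Cd83 and Icam1 0.964, whereas Cd86 and Cd83 had 0.0301. These points share treatment, line and depth, so the values only describe these libraries. Among 11074 other tested genes with a symbol, the closest in pattern to Icam1 were Nfkbib, Nfkb2 and Rab11fip1 (r of 0.993, 0.990 and 0.988). For Cd40 they were Socs3, Stk40 and Il1b (0.994, 0.993 and 0.993), for Cd83 Itga5, Relb and Cdk5r1 (0.987, 0.984 and 0.984) and for Tnfsf9 Efl1, Phlda1 and Ccl4 (0.991, 0.975 and 0.970). For Cd274 they were Lrp10, Rnd1 and Rap1b (0.991, 0.987 and 0.986), for Cd80 Ddx60, Lck and Gbp9 (0.978, 0.977 and 0.972) and for Cd69 Slc15a3, Cx3cl1 and Ifih1 (0.990, 0.981 and 0.981). The closest to Cd86 were Pla2g5, Creb5 and Eid2 (0.979, 0.944 and 0.943), and to Icosl Trim39, Baz1a and Pfn1 (0.943, 0.934 and 0.921).

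The authors' deposited tables of changed genes list 8 of the members for LPS-treated over untreated WT cells, all as higher, and leave out Cd86 and Vcam1. In the authors' deposited table Cd40 has the largest log2 fold, 4.80, and Cd80 the smallest, 1.93. For Ing4-/- over WT cells the authors' deposited tables list Icosl alone of the members, at a log2 fold of -2.29 untreated (the authors' adjusted p = 0.0048) and -2.85 after LPS (the authors' adjusted p = 3.7e-05). For untreated Socs1-/- over WT cells the authors' deposited table lists Tnfsf9 alone of the members, at -1.29 (the authors' adjusted p = 0.0047). Their table for LPS-treated Socs1-/- over WT cells lists none of the members. The authors' folds are smaller in size than the edgeR values given above. For Cd40 in WT cells edgeR gave 7.08, and for Icosl in Ing4-/- against WT cells -6.05 untreated and -3.93 after LPS. They come from the authors' own processing, so the sizes are not to be compared directly.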

How the data were processed

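RNA of RAW 264.7 cells in 6 groups of 2 libraries was sequenced as single reads of 75 bases from stranded poly(A) libraries, per the labels' protocols. The authors deposited 1 table of raw read counts per Ensembl gene, with no scaling. Per the submitters' processing notes the tools were FastQC, HISAT, StringTie, HTSeq and DESeq2, with no versions named. In addition, the authors' deposited tables of changed genes hold a log2 fold change, an adjusted p-value and group means as a normalized signal for each listed gene. GRCh38 is named as the build, whereas all identifiers belong to mouse and 1028 of 1084 gene positions in those tables (94.8%) match GRCm38, the build used here. The treatment protocol names HEK293T cells, whereas the samples are labelled RAW 264.7.

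The counts were tested in R 4.3.3 with edgeR 4.0.16: filterByExpr by group (12771 of 54232 genes), TMM scaling, 1 mean for each of the 6 groups, and the robust quasi-likelihood F-test with Benjamini-Hochberg adjustment over all tested genes, called at 0.05. All adjusted p-values in the text are from this test unless another tool or setting is named. The SE is the size of the log2 change divided by the square root of F. The prior count for log2 CPM correlations was 2. Where a group had 0 counts, 3 counts over that group were used to give a bound. Intervals and floors cover counting error only. Replicate differences correlated at 0.447 to 0.601 between the treated and untreated pair of a genotype and at -0.129 to 0.156 between genotypes. The fit with genotype and replicate number as a block therefore paired same-numbered libraries within a genotype. The main test, with its SEs and calls, used no block and ignored this pairing. Alternatives were DESeq2 1.42.0, RLE and upper-quartile scaling, no filter, the groups of a comparison alone, the replicate number as a block with and without genotype, and leaving out each library. On counts simulated for LPS against untreated WT cells, with 12376 genes tested, the test recovered 9 of 100 genes changed 2-fold and 74 of 100 changed 4-fold, with 11 false calls.

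The members and the gene lists were chosen with earlier results of these data known. The text names all 10 members, up to 6 called genes of the list of 48 related genes per comparison, the partner genes by count, and the 3 genes most like each member by Pearson correlation. Partner genes with values were picked after their counts were seen.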

Additional observations from a re-analysis of the deposited data

How the results depend on the processing

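Of 1039 alternative values for the 56 log2 changes of members that were computed under other settings, 1032 kept their direction. The 7 that reversed came from leaving out 1 library. For LPS-treated Socs1-/- against WT cells, Icosl was 0.49 without WT replicate 1 and 0.70 without Socs1-/- replicate 1, and Cd40 was 0.86 without WT replicate 2 and 0.74 without Socs1-/- replicate 1. Without replicate 2 of the LPS-treated Socs1-/- cells, their LPS change was -0.30 for Cd80 and -2.64 for Cd86, and the response of Icosl in Socs1-/- minus WT cells was -0.90. Leaving out each library gave ranges of -2.13 to 0.70 and -1.89 to 0.86 for these differences of Icosl and Cd40, -0.30 to 2.70 and -2.64 to 9.92 for the changes of Cd80 and Cd86, and -0.90 to 2.15 for the response of Icosl. The causes were not tested. Among all values with 1 library left out 52 lost their call and 21 gained it, and under the other settings 6 lost it and 59 gained it.

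With DESeq2, LPS called 2187 genes in Ing4-/- cells, 7 members and 842 genes in Socs1-/- cells, and 8 members and 1426 genes in WT cells. DESeq2 called 2 members and 126 genes for untreated Ing4-/- against WT cells, 1 and 89 for untreated Socs1-/-, 1 and 140 for LPS-treated Ing4-/-, and 235 genes for LPS-treated Socs1-/-. With no filter the LPS calls were 2588 genes in Ing4-/- cells, 9 members and 1462 genes in Socs1-/- cells, and 9 and 2080 in WT cells. Against WT they were 3 and 516 (Ing4-/- untreated), 4 and 429 (Socs1-/- untreated), 5 and 539 (Ing4-/- with LPS) and 5 and 919 (Socs1-/- with LPS). The differences of response gave 26 and 64 genes. Adjusted p-values of edgeR were far smaller in this unfiltered fit, such as 1.02e-39 against 0.0582 for Cd69 after LPS in WT cells. Whether it estimates the spread well from 2 libraries per group was not tested. Its calls are listed only to show the dependence on the filter. With the groups of a comparison alone, LPS called 1820 genes in Ing4-/- cells, 0 members and 0 genes in Socs1-/- cells, and 9 members and 2197 genes in WT cells. Against WT this gave 2 members and 177 genes (Ing4-/- untreated), 3 and 72 (Ing4-/- with LPS) and 0 genes (Socs1-/- with LPS).

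With genotype and replicate number as a block, LPS called 3471 genes in Ing4-/- cells, 8 members and 769 genes in Socs1-/- cells, and 9 and 1811 in WT cells. With the replicate number alone as a block, 18 genes were called for LPS-treated Socs1-/- against WT cells, Icosl was no longer called in LPS-treated Ing4-/- cells, and Cd80 was called there and Cd274 in Socs1-/- cells.

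Leaving out each library in turn, LPS called 2 to 8 members and 77 to 2708 genes in Ing4-/- cells, 2 to 8 and 49 to 2090 in Socs1-/- cells, and 1 to 8 and 28 to 1920 in WT cells. Against WT the ranges were 0 to 1 members and 1 to 47 genes (Ing4-/- untreated), 0 to 1 and 0 to 24 (Socs1-/- untreated), 0 to 1 and 4 to 40 (Ing4-/- with LPS), and 0 to 3 and 0 to 1196 (Socs1-/- with LPS). The differences of response gave 0 to 0 genes for Ing4-/- and 0 to 61 for Socs1-/- cells. With upper-quartile scaling the median log2 change of all genes after LPS was -0.129 in both knockout lines and -0.106 in WT cells, against a median within 0.01 of 0 with TMM scaling.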
